A study of Mus musculus with 4 samples.

Results

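Cilp, Cilp2, Ucma, Cytl1, Scrg1 and Snorc are 6 genes of the 24421 in the count table, chosen by name as products that chondrocytes release into or display at the cartilage matrix. Of these, 5 were listed under their own symbols. Snorc was missing under its own symbol, and its counts stood under the older name 3110079O15Rik that RefSeq gives for it. RNA was measured in 4 libraries of superficial-zone articular cartilage from the medial femoral condyle of C57BL/6J mice, 8 weeks after surgery. Mouse M04 and mouse M05 each gave a sham-operated knee and one operated by DMM (destabilization of the medial meniscus), which makes the joint unstable and leads to osteoarthritis, so that each group held 2 libraries and each pair of knees came from 1 animal. Both mice are wild type in the sample labels, while the series' design text marks M05 as knockout and names no gene, so that M05 and M04 are compared here as 2 animals. The sources used here give neither age nor sex.

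Chondrocytes are the only cells of healthy articular cartilage, and they build it from collagen II fibrils, aggrecan and many less abundant secreted proteins. CILP, the cartilage intermediate layer protein, accumulates in the middle depth of articular cartilage and can bind transforming growth factor beta, and CILP2 is its paralog. UCMA, also called Gla-rich protein, is rich in glutamates that a vitamin K-dependent enzyme carboxylates, and it binds calcium. CYTL1 is a small secreted cytokine-like protein, first found in blood-forming precursor cells and abundant in cartilage. SCRG1 is a small cysteine-rich secreted protein that appears as mesenchymal precursors turn into chondrocytes. SNORC is a membrane-spanning chondroitin sulfate proteoglycan of cartilage.

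The name small fits 4 of the 6 by coding length. In GENCODE M21 the longest coding sequence was 294 bases for Scrg1, 363 for Snorc, 414 for Ucma and 417 for Cytl1, against 3486 for Cilp2 and 3750 for Cilp. No exon of the 6 overlapped an exon of another gene in that annotation, and no stretch of 50 bases of their transcripts occurred in a transcript of another gene, so that reads of the paralogs Cilp and Cilp2 can be told apart over such a length.

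The sequence just before the transcription start is shown for the paralog pair Cilp and Cilp2, and for Ucma and Cytl1, of which the first was higher in DMM knees and the second was not. RefSeq's promoter table (GRCm38.p6) held these 4 of the 6. Each line gives the 100 bases before the start, 5′ to 3′ on the strand of the gene, with the letters TATAA in capitals where they lie 16 to 40 bases before the start. The windows lie at chr9:65265080-65265179 (plus strand) for Cilp, chr8:69887393-69887492 (minus strand) for Cilp2, chr2:4976022-4976121 (plus strand) for Ucma and chr5:37735419-37735518 (plus strand) for Cytl1. These positions are on GRCm38, not on the build of the deposited files.
Cilp: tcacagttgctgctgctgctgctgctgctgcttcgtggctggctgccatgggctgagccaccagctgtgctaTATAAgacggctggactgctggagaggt
Cilp2: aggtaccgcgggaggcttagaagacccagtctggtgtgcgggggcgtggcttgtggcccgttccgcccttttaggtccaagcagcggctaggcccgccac
Ucma: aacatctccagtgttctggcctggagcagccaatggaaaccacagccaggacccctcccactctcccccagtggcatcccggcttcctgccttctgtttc
Cytl1: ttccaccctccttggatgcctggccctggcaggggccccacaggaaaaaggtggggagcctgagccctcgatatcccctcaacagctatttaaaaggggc

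TATAA, the core letters of a TATA box, began 28 bases before the start of Cilp and was not found in that window of the other 3. Of 32851 promoters in the table, 3.52% held it there on the strand of the gene. ACAAT, the core bound by SOX factors such as SOX9, the master regulator of chondrocytes, was searched on both strands of the 250 bases before the start. It occurred once, 240 bases before the start of Cilp2, which is outside the printed window, and 27.7% of all promoters held it. The longer form AACAAT contains the shorter one, lay at the same site of Cilp2 and was found in 9.42% of promoters. The paralogs also differed in base composition: the 250 bases held 3 CpG dinucleotides (56.0% G and C) in Cilp and 15 (62.4%) in Cilp2, against a median of 6 (52.4%) over the table. Ucma and Cytl1 held 4 each.

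The share of listed cartilage transcripts differed between the libraries, and blood and marrow transcripts were abundant in all of them. Total counts ran from 12712425 to 19336628. A reference list of 25 other chondrocyte genes, among them Col2a1, Acan and Sox9, was found complete, with no member at 0 in any library. For M04 its share of the counts was 0.707% in sham and 0.887% in DMM cartilage, and for M05 it was 0.177% and 0.585%. The sham library of M05 was thus the lowest in cartilage transcripts. The superficial-zone list, which includes Prg4 for the lubricant lubricin, ranged from 0.0203% in the same library to 0.0688% in the DMM library of M04. Of 8 erythroid markers, 7 were found, and they held 21.1% to 28.2% of the counts, with the highest share in the sham library of M05. The 7 neutrophil markers held 3.94% to 5.61%, again with the highest share there. Skeletal muscle markers went from 0.0132% in sham to 0.0378% in DMM cartilage of M04 and from 0.0393% to 0.0120% in M05. Of 7 fibroblast markers, the tendon genes Tnmd and Scx were at 0 in 1 library each, and the list held 0.00602% to 0.00808%. The 8 osteoblast markers held 0.595% (sham) and 0.689% (DMM) in M04 and 0.387% and 0.477% in M05. In the sham library of M05 they were thus above the chondrocyte reference. The 8 hypertrophic chondrocyte markers held 0.0948% to 0.203%, above the superficial-zone list in every library. In such bulk samples, fewer chondrocytes and less RNA per chondrocyte cannot be told apart.

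**Figure D1:**
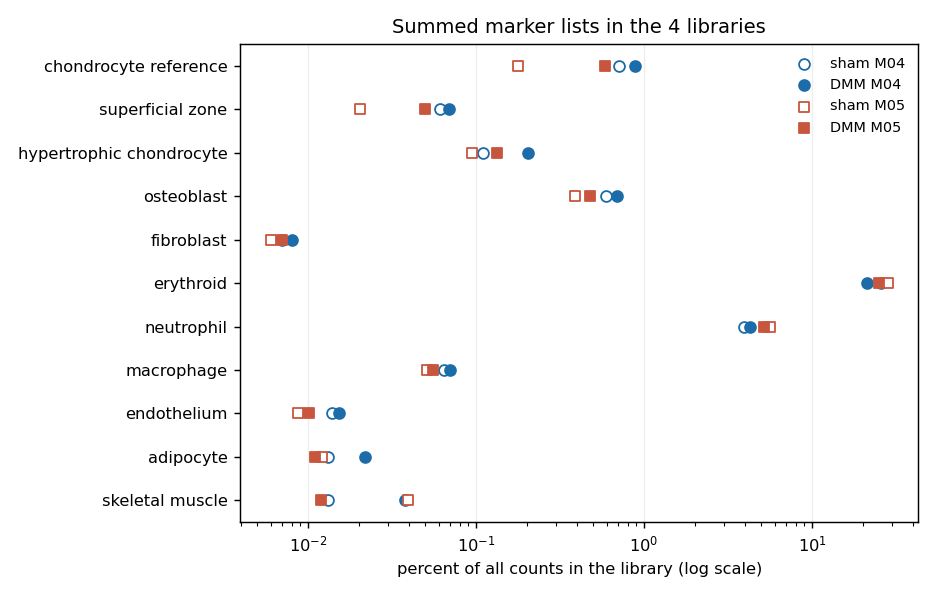
Share of all counts, on a log scale, held by each summed marker list in each library (circles M04, squares M05, open sham, filled DMM). The chondrocyte reference and superficial-zone lists sit lowest in the sham library of M05, at 0.177% and 0.0203%, while erythroid markers are highest there.

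All 6 genes were detected in every library and passed the filter on low counts. Per length, in the authors' FPKM, Cytl1 had the highest mean over the libraries, at 351 FPKM, followed by Snorc at 305 FPKM. Scrg1 (65.3 FPKM), Cilp (40.1 FPKM), Ucma (30.0 FPKM) and Cilp2 (5.0 FPKM) came next. Snorc was at 0.823, 0.965 and 0.457 times the FPKM of Cytl1 in the sham and DMM libraries of M04 and the sham one of M05, and at 1.17 times in the DMM library of M05. This last order turned when TMM-normalised CPM per kilobase of the GENCODE transcript were used, an alternative chosen after seeing the data. On that scale Snorc was at 0.588 (sham) and 0.694 (DMM) times Cytl1 in M04, and at 0.331 and 0.845 times in M05. Cytl1 thus came first in every library there, and in FPKM in all but the DMM library of M05. The FPKM of Scrg1 was above that of Cilp in all 4 libraries, but per kilobase of the GENCODE transcript Scrg1 was below Cilp in the sham library of M04, with 43.1 against 45.9 CPM. In FPKM, Ucma passed Cilp in the sham library of M05 only, with 19.2 FPKM against 9.66 FPKM. Summed over the 6 genes, the share of all counts was 0.0677% (sham) and 0.0786% (DMM) for M04, and 0.0307% and 0.0620% for M05.

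The main comparison asked how DMM knees differ from sham knees of the same animals. Ucma, Scrg1 and Snorc rose in DMM knees, by 1.72, 1.70 and 1.81 times, and Cilp, Cilp2 and Cytl1 did not pass the test. That is 3 of the 6, against 0.633% of all 13103 genes tested that were higher and 0.649% called in either direction, by edgeR's quasi-likelihood test with the mouse as a block. The median log2 fold change was 0.78 over the 6 genes and -0.01 over all genes tested. Of the 25 chondrocyte reference genes 12 were higher, with a median of 0.92. Levels below are TMM-normalised CPM, counts scaled to a common library size.

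**Figure D2:**
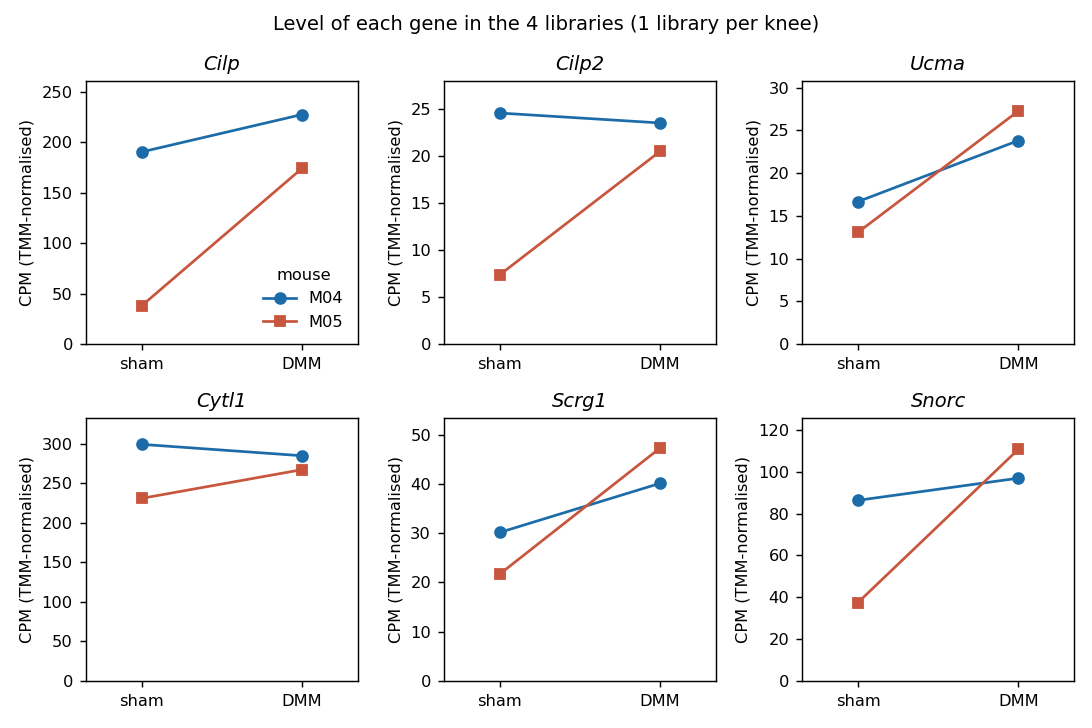
TMM-normalised CPM of each gene in the sham and DMM knee of M04 (circles) and M05 (squares), with a line joining the knees of 1 mouse and axes from 0. Ucma, Scrg1 and Snorc are higher in both DMM libraries than in either sham library, and the groups overlap for Cilp, Cilp2 and Cytl1. How many of all genes tested separate in this way was not counted. Cilp, Cilp2 and Snorc stand far below their other levels in the sham library of M05.

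Ucma stood at 16.7 and 23.8 CPM in the sham and DMM knee of M04 and at 13.1 and 27.3 CPM in those of M05. Both DMM libraries were above both sham libraries. How many of all genes tested separate so was not counted, here and for the genes below. The log2 fold change was 0.79 (SE 0.21, edgeR adjusted p = 0.0277), and the libraries held 223 to 356 counts of it. Within the mice the log2 ratio of DMM to sham was 0.51 in M04 (95% exact binomial interval 0.27 to 0.76) and 1.05 in M05 (0.81 to 1.31). These intervals, here and below, cover counting error only.

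Scrg1 stood at 30.1 and 40.1 CPM in the sham and DMM knee of M04 and at 21.7 and 47.3 CPM in those of M05. Here too the groups did not overlap, and the DMM library of M05 was the highest. The log2 fold change was 0.77 (SE 0.18, edgeR adjusted p = 0.00428). The ratio was 0.41 in M04 (0.23 to 0.60) and 1.12 in M05 (0.93 to 1.32). Ucma and Scrg1 had nearly the same profile: after each gene's log2 CPM were centred on its own mean, they differed by a root mean square of 0.05 over the 4 libraries, the smallest distance among the 6 genes.

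Snorc stood at 86.4 and 97.0 CPM in the sham and DMM knee of M04 and at 37.5 and 110.8 CPM in those of M05. The groups did not overlap, but the sham library of M05 lay far below the other 3, which were within 86.4 to 110.8 CPM. The log2 fold change was 0.86 (SE 0.19, edgeR adjusted p = 0.0172), and 0.26 with the sham library of M05 left out and no mouse term. As for Ucma and Scrg1, the error and p-value draw mainly on the spread of other genes. They do not measure how far the mice differ. The ratio was 0.17 in M04 (0.05 to 0.28) and 1.56 in M05 (1.43 to 1.70).

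Cilp stood at 190.6 and 227.7 CPM in the sham and DMM knee of M04 and at 38.1 and 174.3 CPM in those of M05. The DMM library of M05 was below the sham library of M04, so the groups overlapped. The log2 fold change was 1.20, larger than that of the 3 genes that passed, with a standard error of 1.01 and an edgeR adjusted p of 1.0. The ratio was 0.26 in M04 (0.18 to 0.33) and 2.19 in M05 (2.07 to 2.32), the widest gap between the mice among the 6 genes. Without robust moderation, which let the gene's own spread between the mice set its error, Cilp passed (edgeR adjusted p = 2.73e-09).

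Cilp2 stood at 24.6 and 23.5 CPM in the sham and DMM knee of M04 and at 7.39 and 20.5 CPM in those of M05. Only the sham library of M05 was apart from the others. The log2 fold change was 0.66 (SE 0.22, edgeR adjusted p = 0.223). The ratio was -0.06 in M04 (-0.28 to 0.16), and 0.04 on raw totals in place of TMM, and it was 1.46 in M05 (1.16 to 1.79).

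Cytl1 stood at 299 and 285 CPM in the sham and DMM knee of M04 and at 231 and 267 CPM in those of M05. The 4 levels lay close together, and both DMM libraries fell between the sham libraries. The log2 fold change was 0.07 (SE 0.15, edgeR adjusted p = 1.0). The ratio was -0.07 in M04 (-0.13 to -0.01) and 0.21 in M05 (0.14 to 0.28), and on raw totals that of M04 was 0.04. With 3254 to 4259 counts in each library, counting error was small for this gene.

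With 1 degree of freedom left in the fit, the 3 calls are lost without the mouse term, in DESeq2, in limma on FPKM and with haemoglobin rows left out, where none of the 6 passed, and with RLE size factors Scrg1 alone passed. With the sham library of M05 left out and no mouse term, none passed either, and the log2 fold changes were 0.61 for Ucma, 0.53 for Scrg1, 0.26 for Snorc, 0.08 for Cilp, -0.16 for Cilp2 and -0.12 for Cytl1.

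The size of the response was then compared between the animals. All 6 log2 ratios were larger in M05 than in M04, with differences from 0.28 for Cytl1 and 0.54 for Ucma to 1.52 for Cilp2 and 1.93 for Cilp. The median ratio of the 6 was 0.21 in M04 and 1.29 in M05, close to 0.29 and 1.41 for the 25 reference genes, while the median of all genes tested was 0.01 and -0.01. Cilp had a larger ratio in M05 than all 25 reference genes, and Cytl1 a larger one than only 3 of them. In M04, Ucma was above 18 and Scrg1 above 16 of the 25, Cilp above 11, Snorc above 8, and Cilp2 and Cytl1 above 3 each. Fitting both terms uses up what a test of this difference would need, so it was not tested.

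**Figure D3:**
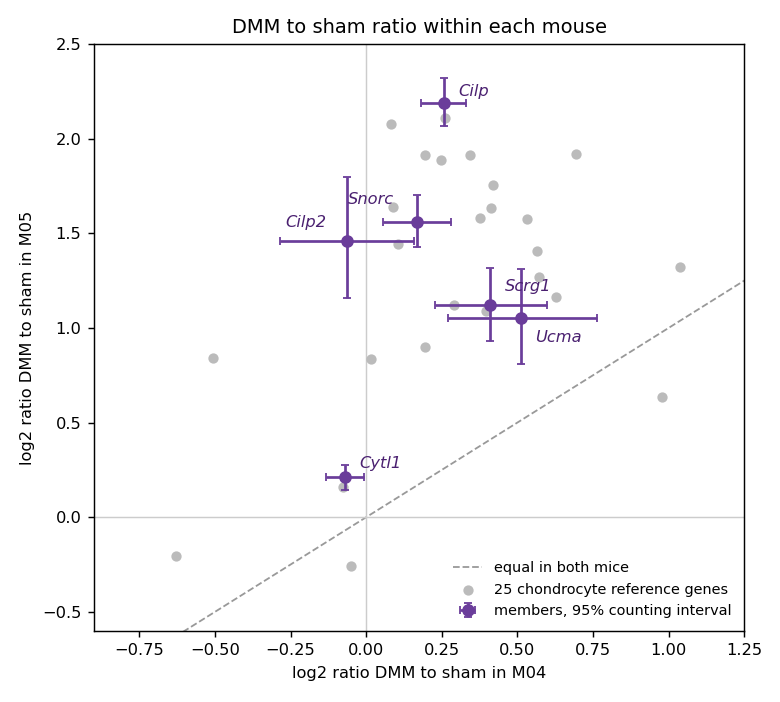
Log2 ratio of DMM to sham in M04 (x) and M05 (y) for the 6 genes, with 95% counting intervals, and for the 25 chondrocyte reference genes (grey). All 6 lie above the dashed line of equal ratios, Cytl1 nearest to it at -0.07 and 0.21 and Cilp farthest at 0.26 and 2.19.

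For all 6 genes the mice differed more in their sham than in their DMM libraries. Between the sham libraries, M04 was above M05 by 5.0 times for Cilp, 3.33 times for Cilp2 and 2.30 times for Snorc, but by 1.39 times for Scrg1, 1.30 times for Cytl1 and 1.27 times for Ucma. Between the DMM libraries the same quotients were 1.31, 1.15, 0.875, 0.848, 1.07 and 0.873 in that order. In the model of all 4 libraries, Cilp2 was lower in M05, with a log2 fold change of -0.94 (SE 0.22, edgeR adjusted p = 0.00244), and it was the only one of the 6 to pass, against 1.64% of all genes tested that were lower in M05 and 2.6% called in either direction. Of the chondrocyte reference list, 12 of 25 genes were also lower in M05 past the threshold and none was higher, with a median of -0.80, and so were 4 of 6 superficial-zone genes, 4 of 8 hypertrophic chondrocyte genes, 2 of 5 endothelial genes and 1 of 4 adipocyte genes, while 2 of 7 neutrophil genes were higher. Cilp (-1.33, SE 1.02), Snorc (-0.49, SE 0.19), Cytl1 (-0.23, SE 0.15), Scrg1 (-0.11, SE 0.18) and Ucma (-0.07, SE 0.20) had edgeR adjusted p-values of 0.794, 0.187, 0.522, 0.856 and 0.940. With the sham library of M05 left out and no surgery term, Cilp2 stood at -0.23 and did not pass. These values compare 2 animals and give no effect of genotype.

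Set against other cartilage transcripts of the same library, the genes fell into different patterns. Per 1000 counts of the reference list, Cilp had 28.2 and 28.9 counts in the sham and DMM library of M04, 19.0 in the sham library of M05 and 28.6 in its DMM library. It was thus level in 3 libraries and lower in the fourth, where Col2a1 made up 36.2% of the reference against 44.9% to 49.5% in the others. Cilp2 stayed between 2.99 and 3.68 per 1000 in all 4. Its direction in M05 depended on the reference, with log2 ratios of -0.13 on the whole list and -0.44 against Col2a1 alone. Against the list without Col2a1 the ratio of Cilp2 there was 0.08. Snorc had 12.8 and 12.3 in M04 and 18.7 and 18.1 in M05, so that on this reference it differed more between the mice than between the knees. Its log2 ratio in M05 was -0.04 on the whole list, -0.35 against Col2a1 alone and 0.17 against the list without Col2a1, so its direction there depends on the reference.

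Ucma, Scrg1 and Cytl1 were highest per reference count in the sham library of M05, where the reference itself was lowest. Ucma had 2.47 (sham) and 3.03 (DMM) per 1000 in M04 and 6.52 and 4.47 in M05. Scrg1 had 4.46 and 5.10 in M04 and 10.8 and 7.75 in M05. Cytl1 had 44.3 and 36.2 in M04 and 115.1 and 43.8 in M05, which is 2.60 times as much in the sham library of M05 as in that of M04. On this scale Ucma and Scrg1 were higher in the DMM knee of M04, by log2 ratios of 0.30 and 0.19, and lower in that of M05, by -0.55 and -0.48. The increase that they showed in CPM in M05 was therefore smaller than that of the reference list. These values carry no test. Erythroid and neutrophil shares were highest in the same sham library. The neutrophil share ranked the libraries in the same order as Ucma and Scrg1 per reference count, and the erythroid share in the same order as Cytl1. In CPM, Ucma, Scrg1 and Cytl1 were instead lowest in the sham library of M05, so these orders did not match. With so few libraries such orders only describe these samples. From sham to DMM the neutrophil share went from 3.94% to 4.26% in M04 and from 5.61% to 5.199% in M05. The erythroid share went from 25.7% to 21.1% in M04 and from 28.2% to 24.95% in M05. Their part in the result was not tested.

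**Figure D4:**
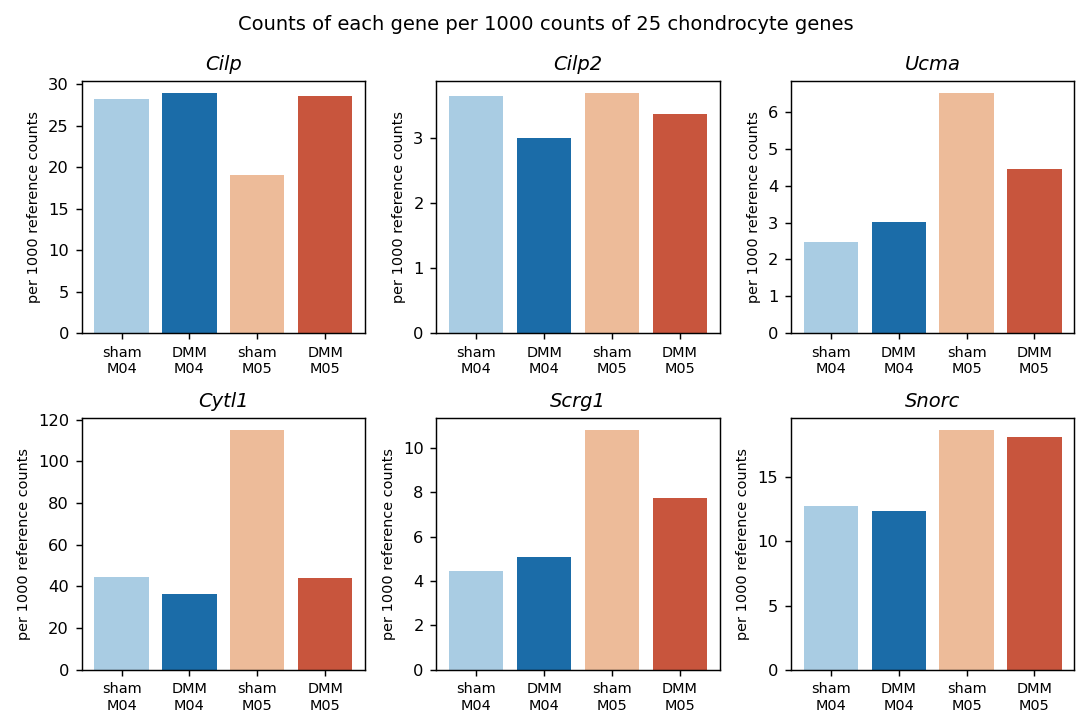
Counts of each gene per 1000 summed counts of the 25 chondrocyte reference genes in each library, with bars from 0 and 1 library per bar. Cilp dips to 19.0 in the sham library of M05, whereas Cytl1 peaks there at 115.1 and Ucma and Scrg1 at 6.52 and 10.8.

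The genes with the most similar profiles were sought among 7463 others with a mean of at least 10 CPM, by the root mean square distance of centred log2 CPM over the 4 libraries. Nearest to the mean of the 6 genes were Ltbp4 (0.07), Mfge8 (0.08), Clu (0.09), Gas1 (0.10) and Clec3a (0.10), the last a C-type lectin of cartilage. Cilp was nearest to Acan (0.08), the core protein of the main cartilage proteoglycan, and to Col2a1 (0.10), the chain of the main cartilage collagen. Cilp2 was nearest to Prg4 (0.07) and to Chad (0.10), which encodes the cell-binding matrix protein chondroadherin. Snorc was nearest to Enpp2 (0.07), which encodes autotaxin, and to Lect1 (0.13), the older symbol of chondromodulin's gene Cnmd. Ucma was nearest to Fscn1 (0.04) and Ly6a (0.05), and so was Scrg1 (0.05 and 0.07). Cytl1, with a nearly level profile, was nearest to Hnrnpul2 and Stab1 (0.01 each). With 4 libraries such distances only describe these samples.

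Genes that act with the 6 were taken from lists. Of 9 genes for Gla proteins and the vitamin K cycle, which concern Ucma, 1 rose and none fell. This was Mgp, the matrix Gla protein that keeps cartilage from calcifying, with 136.7 and 239 CPM in the sham and DMM knee of M04 and 126 and 277 CPM in those of M05. Its log2 fold change was 0.97 (SE 0.15, edgeR adjusted p = 3.05e-07), and like Ucma its groups did not overlap. Vkorc1, which recycles vitamin K, had 0.40 (adjusted p = 0.752), and Ggcx, the carboxylase itself, had 0.63 (adjusted p = 1.0). The list's median was 0.06 against -0.01 over all genes tested.

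None of the 8 growth factors, receptors and binding partners reported for CILP, SCRG1 and CYTL1 passed the test, and their median was -0.09. The smallest p-values belonged to the chemokine receptor gene Ccr2, with a log2 fold change of -0.30 (edgeR adjusted p = 0.996), and to the receptor gene Tgfbr1, with -0.39 (adjusted p = 1.0). Tgfb1, the ligand that CILP can bind, was at 0.04, Igf1 at 0.29 and Itgb1, a receptor chain for SCRG1, at -0.11.

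Of the 25 reference genes, 12 rose and none fell, with a median of 0.92. The smallest p-values were those of Fmod (1.30), Col9a3 (1.04), Comp (1.02), Col9a1 (0.97) and Cnmd (1.08). Col2a1 (1.05, edgeR adjusted p = 0.0858) and Acan (1.17, adjusted p = 1.0) did not pass, and they are the genes whose profiles were nearest to that of Cilp. Of the superficial-zone list, 1 of 6 genes rose, Prg4, by 0.74 (adjusted p = 0.0359). Of 8 hypertrophic chondrocyte genes 4 rose, namely Col10a1 (1.04), Alpl (0.72), Pth1r (0.62) and Ibsp (0.56), and of 5 tested fibroblast genes 1 rose, Clec3b (2.19). No gene of the osteoblast, erythroid, neutrophil, muscle, macrophage, endothelium and adipocyte lists passed in edgeR.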

How the data were processed

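The deposited count table gives estimated counts per gene that the authors made, and they need not be whole: 9.21% to 10.9% of values per library were not. The authors' FPKM values, scaled for length and depth, came from the second deposited table. The submitters' processing notes name the build GRCm39 (mm39). Aligner, counter and strandedness: not given in the sources used here. Per the labels' protocols, poly(A) RNA was sequenced as single-end reads of 100 bases. The 4 columns that repeat another column in all 24421 rows were not used. Both sham samples are described in free text as from a DMM-operated knee, and the titles and the treatment field were followed instead.

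Counts were rounded, filtered by filterByExpr (13103 genes kept), scaled by TMM and tested with edgeR 4.0.16 (R 4.3.3), quasi-likelihood with robust moderation, with terms for mouse and surgery. P-values were adjusted by Benjamini-Hochberg across every gene tested, at a threshold of 0.05. Standard errors are the log2 fold change over the square root of F. The labels pair the knees by animal, hence the block. Libraries of 1 mouse deviated together from their group means only weakly (correlation 0.13). For 83.0% of genes, Ucma and Cytl1 among them, the spread came from the trend across genes. For Scrg1 and Cilp2 nearly all of it did. The trend weighed 11234 degrees of freedom for Scrg1, 784 for Cilp2, 40 for Snorc and 0.003 for Cilp, against 1 left in the fit. Ratios within a mouse used CPM with a prior count of 2, and intervals are exact binomial ones for the counts of both libraries. Log2 ratios per reference count used raw counts. On simulated counts for DMM against sham (12917 genes tested), 91% of 100 genes changed by a log2 fold of 1 and 100% of 100 genes changed by 2 were recovered, with 8 false calls. Each simulated gene had the same level and response in both mice, unlike these data, so the figures do not give error rates here.

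The members and lists were chosen with earlier results of these data known. All 6 members are named. From the lists, up to 5 genes past the threshold by smallest p are named, or the 2 with the smallest p where none passed, except that marker lists of other cell types with no call are given as counts. Tgfb1, Igf1, Itgb1, Vkorc1, Ggcx, Col2a1 and Acan were named after their values were seen. Likeness used the 5 nearest genes to the mean profile and the 2 nearest to each member. Alternatives were DESeq2 1.42.0, RLE size factors, other filters, no robust moderation, no haemoglobin rows, limma 3.58.1 on log2(FPKM + 1) and log2(FPKM + 0.1) at a mean of at least 0.5 FPKM, fits without the other term, and each library left out.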

Additional observations from a re-analysis of the deposited data

Results flagged for a closer look

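Cilp2 and Cytl1 had DMM to sham log2 ratios of opposite sign in the mice, -0.063 in M04 and 1.46 in M05 for Cilp2, and -0.071 in M04 and 0.21 in M05 for Cytl1. The difference was not tested, since each mouse has 1 library a side. On raw totals in place of TMM, both ratios of M04 were 0.04, so their sign there depends on the scaling. The interval of Cilp2 in M04, -0.28 to 0.16, includes 0.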

How the results depend on the processing

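For DMM against sham, 85 genes and 3 of the 6 members passed in edgeR (681 genes and 4 members at an unadjusted p under 0.05). Without the replicate block of the mouse, edgeR gave 0 genes and 0 members (322 and 2 unadjusted), and DESeq2 with both terms gave 11 and 0 (194 and 2). RLE size factors gave 35 and 1, Scrg1, and leaving out haemoglobin rows gave 23 and 0 (604 and 2). Limma gave 1 gene and 0 members with either pseudocount (538 and 2 unadjusted with 1, 520 and 2 with 0.1). Other filters and no robust moderation gave 76 to 91 genes and 3 or 4 members. With each library left out and no mouse term, 0 to 121 genes and 0 to 4 members passed. The 4 came without the sham library of M04 (Cilp, Cilp2, Scrg1 and Snorc), and none passed in the other 3 fits. Without the sham library of M05, Cilp2 turned to -0.16 and Cytl1 to -0.12, and without that of M04 they stood highest, at 1.58 and 0.26. Beyond these, every member kept its sign in all settings run. For M05 against M04, 341 genes and 1 member passed. Without the surgery term edgeR gave 0 and 0 (1819 and 0 unadjusted). DESeq2 gave 69 and 0 (754 and 1), but no adjusted p-value for Cilp2, Ucma and Scrg1, so these could not be called there. RLE size factors gave 186 and 0 (1785 and 1) and limma 0 and 0 (1281 and 1). With a library left out, 0 to 331 genes and 0 to 3 members passed, the 3 (Cilp, Cilp2 and Snorc) without the DMM library of M05. Without the DMM library of M04, Scrg1 turned to 0.18 and Ucma to 0.26. Without the sham library of M05, Ucma and Scrg1 turned to 0.43 each and Snorc to 0.27, and without the DMM library of M05 these 3 were lowest, at -0.63, -0.69 and -1.29. The cause was not tested. TMM in place of raw totals lowered the median log2 ratio of all genes by 0.11 in M04 and 0.12 in M05. Against Col2a1 alone in place of the whole reference, the log2 ratio of Cilp in M05 was 0.28 (0.59 with the list) and that of Cytl1 was -1.70 (-1.40). Against the list without Col2a1 they were 0.80 and -1.19.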
